A study of Mus musculus with 6 samples.

Results

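Isocitrate dehydrogenases and NADPH-producing enzymes were followed in mouse T cell acute lymphoblastic leukemia (T-ALL) cells driven by Notch, with and without tamoxifen treatment of the host. The group was defined by name as 10 genes, namely Idh1, Idh2, the subunit genes Idh3a, Idh3b and Idh3g, the malic enzymes Me1 and Me2, the pentose phosphate dehydrogenases G6pdx and Pgd, and the transhydrogenase Nnt. A probe set carrying 1 gene symbol was found for 9 of the 10, out of 19938 such genes on the array. G6pdx was not named in the annotation used here, so it has no value. The measured values that entered the choice were the mean levels over all arrays, which picked the brighter of the 2 Me1 probe sets. The group was also put together with the treatment differences of these arrays already known, in particular those of Idh2 and Idh1. All treatment differences of the 10 genes below are therefore a description, and the adjusted p-values beside them come from the fit over all 13956 tested genes and are no independent evidence.

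The 3 leukemias, lines 14843, 14844 and 14846, arose independently from hematopoietic progenitors that had received Notch-IC by retrovirus and carried both a tamoxifen-inducible Cre-ER transgene and a conditional Zfx fl/y allele. Each leukemia was passed to sublethally irradiated secondary hosts, which received gavage of Vehicle or of Tamoxifen, 5 mg daily on 3 days, beginning 10 days after transplant. GFP-positive cells were taken by sorting 48 h after the last dose. They gave 1 Vehicle array (genotype labelled ZFX flox) and 1 Tamoxifen array (labelled ZFX null) for each line, 6 arrays in all. Every group thus carried Notch-IC, Cre-ER and the conditional allele, and Cre-ER without that allele was not among the groups, so that effects of the drug, of Cre and of a loss of Zfx cannot be told apart. The sources used here do not give the driver of Cre-ER, the host strain or the age of the mice.

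Isocitrate dehydrogenases turn isocitrate into 2-oxoglutarate. The NAD-dependent enzyme, built from the Idh3 subunits, works in the citric acid cycle, while Idh1 in the cytosol and peroxisomes and Idh2 in mitochondria are separate NADP-dependent enzymes that yield NADPH. NADPH is the reducing power for glutathione, thioredoxin and lipid synthesis. It is also made by NADP-dependent malic enzymes, by the oxidative steps of the pentose phosphate pathway and, in mitochondria, by the transhydrogenase Nnt. 2-Oxoglutarate is in turn the cosubstrate of dioxygenases that hydroxylate proteins and demethylate histones, DNA and RNA.

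The promoters of Idh2 and Idh1, on which most of the results below turn, are shown because Zfx is a DNA-binding factor, together with that of Me1, the one member promoter that held the Zfx core motif. The sequences are the 250 bases before the gene start from RefSeq, build GRCm38.p6, read 5′ to 3′ on the gene's strand, with capitals marking the core motif AGGCCT. The motif reads the same on both strands.
Idh2, chr7:80115351-80115600, minus strand: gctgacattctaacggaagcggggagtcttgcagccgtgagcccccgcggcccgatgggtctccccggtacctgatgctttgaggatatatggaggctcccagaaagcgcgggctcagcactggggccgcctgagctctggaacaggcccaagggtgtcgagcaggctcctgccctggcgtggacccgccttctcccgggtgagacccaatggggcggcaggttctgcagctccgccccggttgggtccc
Idh1, the upstream of its 2 listed starts, chr1:65186480-65186729, minus strand: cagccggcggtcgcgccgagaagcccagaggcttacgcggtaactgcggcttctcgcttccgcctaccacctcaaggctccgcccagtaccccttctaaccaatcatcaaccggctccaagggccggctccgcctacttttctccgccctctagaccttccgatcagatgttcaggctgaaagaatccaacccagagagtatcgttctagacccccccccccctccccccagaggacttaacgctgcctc
Me1, the upstream of its 2 listed starts, chr9:86695915-86696164, minus strand: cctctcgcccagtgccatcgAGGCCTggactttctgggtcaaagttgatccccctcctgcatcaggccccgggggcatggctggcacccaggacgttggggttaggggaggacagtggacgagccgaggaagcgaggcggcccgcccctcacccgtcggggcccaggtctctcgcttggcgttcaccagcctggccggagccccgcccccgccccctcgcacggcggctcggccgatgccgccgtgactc
The letters AGGCCT did not occur in the window of Idh2 or of either Idh1 start. In the Me1 window they began 230 bases before the start. Of 32851 listed promoters, 8.70% held the motif in the same 250 bases. G+C content was 67.2% in the Idh2 window and 61.6% in the Idh1 window shown, against a median of 52.4% over all promoters. The windows of Idh3b, Idh3g, G6pdx, Pgd and the second Me1 start also had no match. Idh3a, Me2 and Nnt were not in the promoter table. A match or its absence in such a window is a description of letters and says nothing of binding.

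After RMA, correlations of log2 intensity between arrays were 0.991 to 0.996 over all probe sets. RNA quality was not assessed here. The 9 measured T cell and thymocyte markers, among them Cd3e and Bcl11b, had mean levels of 11.17 to 13.34 log2 intensity. Of the B cell, NK cell, erythroid, myeloid and stromal markers only 2, 2, 3, 6 and 5 were bright enough to be tested. No marker of these 6 lists was called between treatments, against 6.23% of all tested genes. Of the T cell markers 8 lay below 0 and 1 above, and of the myeloid markers 2 below and 4 above. In limma's fit 1 of the 9 T cell and 2 of the 6 myeloid markers had an unadjusted p under 0.05, against 23.8% of all tested genes. Whether the shares of these cell types differed was not tested. The summed level of each list overlapped between the groups. For the T cell list it was 15.55 to 15.70 in Vehicle and 15.41 to 15.61 in Tamoxifen arrays. Levels of the myeloid list ran from 10.67 to 10.97 in Vehicle arrays and from 10.73 to 11.18 in Tamoxifen arrays, on the log2 scale. The NK cell list had the widest spread, 8.67 to 11.04 in Vehicle and 8.94 to 10.76 in Tamoxifen arrays, and its part in the results was not tested. Among the stromal and endothelial markers Pdgfrb was the brightest, at 12.38 ± 0.09 in Vehicle and 12.48 ± 0.50 in Tamoxifen arrays (mean ± SD of 3). Pecam1 followed, with means of 10.98 and 11.08. Group means of Col1a1, Col1a2 and Cdh5 lay between 7.32 and 8.80, and Cxcl12 was too dim to be tested.

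The targeted gene was read by 1 probe set. Zfx was at 10.98, 10.90 and 10.72 log2 intensity in Vehicle arrays of lines 14843, 14844 and 14846, and at 10.96, 10.98 and 10.86 in the Tamoxifen arrays. The groups overlapped, with a difference of 0.07 ± 0.06 (SE). The sources used here do not say whether its probes lie in the deleted part, so the value does not check the labels. Vehicle and Tamoxifen below mean the arrays so labelled.

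Idh2, the mitochondrial NADP-dependent isocitrate dehydrogenase, was far lower in Tamoxifen arrays. Vehicle arrays of lines 14843, 14844 and 14846 had 11.03, 10.58 and 10.69 log2 intensity, and the Tamoxifen arrays had 9.69, 9.43 and 8.98. The highest Tamoxifen value lay below the lowest Vehicle value, so the groups did not overlap. The fitted log2 difference was -1.40 (95% interval -1.67 to -1.12), and in limma's fit over all genes it had an adjusted p of 0.0063. By size this was decrease number 16 of the 13956 genes tested, and by p-value Idh2 stood at place 62. In bulk samples, fewer cells that make a transcript and less of it per cell cannot be told apart.

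Idh1, the cytosolic and peroxisomal relative that makes the same products, went the other way. Its Vehicle values were 9.73, 9.87 and 9.55 in lines 14843, 14844 and 14846, and its Tamoxifen values were 10.09, 10.34 and 9.77. Each line rose, but the groups overlapped, because the Tamoxifen array of line 14846 lay below the Vehicle array of line 14844. The fitted difference was 0.35 (95% interval 0.19 to 0.51), a 1.27-fold increase, with a limma adjusted p of 0.042. The call was lost without line as a block (adjusted p = 0.34) and without line 14843 or 14844 (0.11 and 0.21). Idh2 stayed past the threshold in each of these fits, at 0.029, 0.011 and 0.041.

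Both genes changed by different amounts in the 3 leukemias. Line 14844 had the smallest Idh2 difference, -1.15, and the highest Idh1 difference, 0.46. Line 14846 had the largest Idh2 difference, -1.70, and the lowest Idh1 difference, 0.22, while line 14843 lay between them at -1.34 and 0.37. The log2 ratio of Idh2 to Idh1 within a line thus changed by -1.70, -1.62 and -1.92 in lines 14843, 14844 and 14846, a mean of -1.75 ± 0.16 (SD, n = 3 lines). With 1 pair of arrays per line, differences between lines in the size of the change could not be tested.

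**Figure D1:**
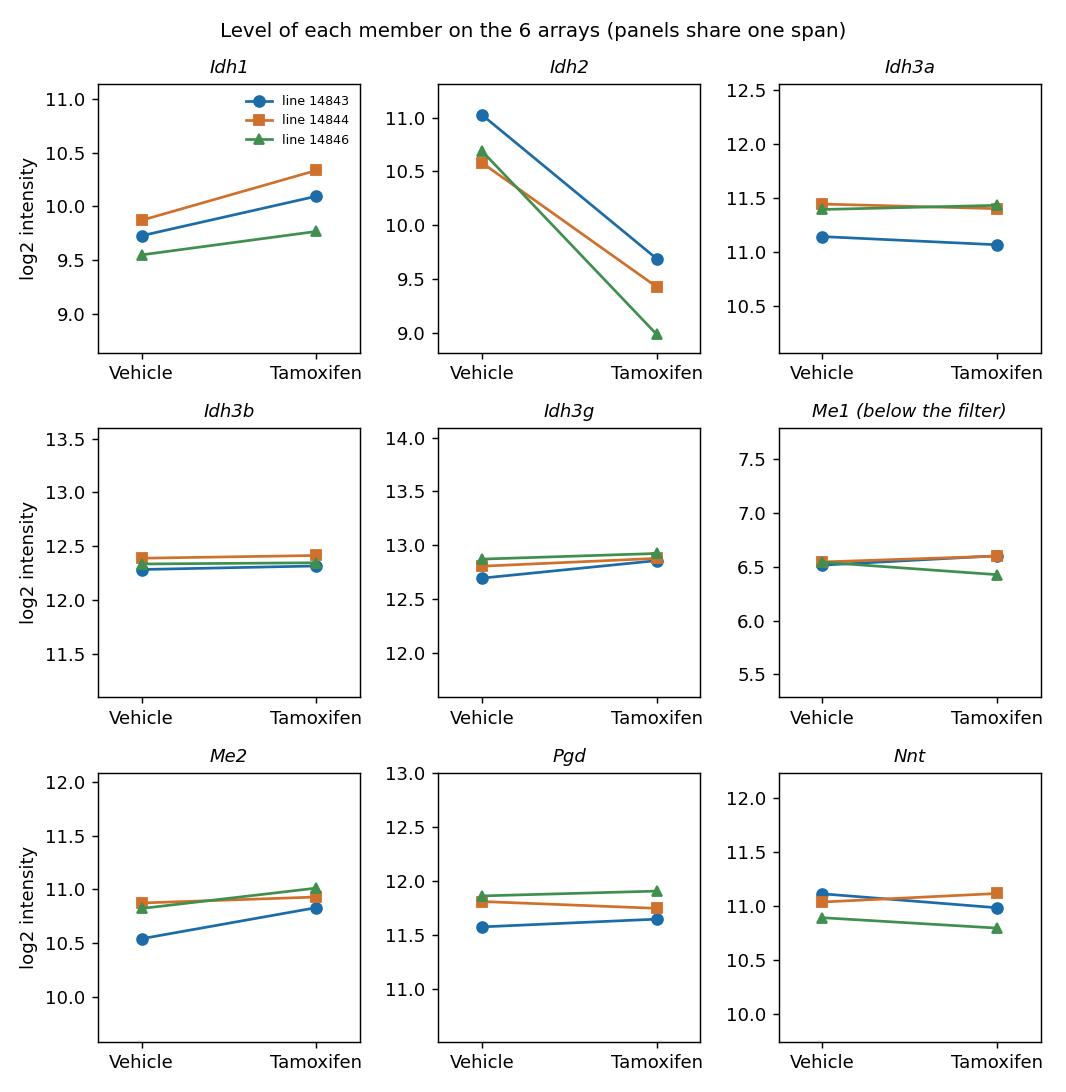
Log2 intensity of each of the 9 measured genes (y axis, every panel with the same span around its own centre) on the Vehicle and Tamoxifen array of each line (x axis, points joined by line). Idh2 falls in each line, from 10.58 to 11.03 down to 8.98 to 9.69, Idh1 rises by 0.22 to 0.46, and no other gene differs by more than 0.29 within a line.

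The 3 subunits of the NAD-dependent isocitrate dehydrogenase showed no called difference. Idh3a, the catalytic subunit, was at 11.14, 11.44 and 11.39 in Vehicle arrays of lines 14843, 14844 and 14846 and at 11.07, 11.40 and 11.43 in Tamoxifen arrays. Its difference was -0.03 (95% interval -0.16 to 0.11), with line 14843 lowest under both treatments. Idh3b, a regulatory subunit, spanned only 12.28 to 12.41 over the 6 arrays. It was above its Vehicle partner by 0.01 to 0.03 in each line, a difference of 0.02 (-0.10 to 0.15). Idh3g, the other regulatory subunit, was at 12.69, 12.81 and 12.87 in Vehicle arrays and at 12.86, 12.88 and 12.92 in Tamoxifen arrays. It too was higher in each line, by 0.10 (-0.04 to 0.23), but the groups overlapped. The intervals of all 3 subunits lay above that of Idh2, while that of Idh3g overlapped that of Idh1.

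Me2, the mitochondrial NAD-dependent malic enzyme, leaned upward. Vehicle arrays of lines 14843, 14844 and 14846 had 10.54, 10.87 and 10.82, and Tamoxifen arrays had 10.83, 10.93 and 11.01. All 3 lines were higher, by 0.29, 0.06 and 0.19, and the groups overlapped through the low Tamoxifen value of line 14843. The difference of 0.18 (95% interval 0.02 to 0.34) had an unadjusted p of 0.035 and missed the threshold, with a limma adjusted p of 0.18. Me1, the cytosolic NADP-dependent malic enzyme, was dim. Its brighter probe set lay between 6.43 and 6.60 on the 6 arrays and the other one between 6.12 and 6.30, both under the filter of 6.70, and it was not tested. The brighter set differed by 0.01 ± 0.06 (SE) in the fit without the filter.

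Pgd, the dehydrogenase that makes the second NADPH of the pentose phosphate pathway, differed little. It was at 11.57, 11.81 and 11.86 in Vehicle arrays and 11.65, 11.75 and 11.91 in Tamoxifen arrays of lines 14843, 14844 and 14846. Line 14844 was lower and the other lines were higher, and the difference was 0.02 (-0.12 to 0.15). G6pd2, an intronless copy of G6pdx, had its own probe set, at 9.34 to 9.51 in Vehicle and 9.46 to 9.69 in Tamoxifen arrays. As the copies are close in sequence, which of them that signal reflects was not tested, and it is not taken as a value of G6pdx.

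Nnt, which uses the mitochondrial proton gradient to pass hydride from NADH to NADP, also lacked a called difference. Vehicle values were 11.11, 11.04 and 10.89, and Tamoxifen values 10.98, 11.12 and 10.79 in lines 14843, 14844 and 14846. Line 14844 was higher and the others lower, for a difference of -0.05 (-0.21 to 0.11).

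**Figure D2:**
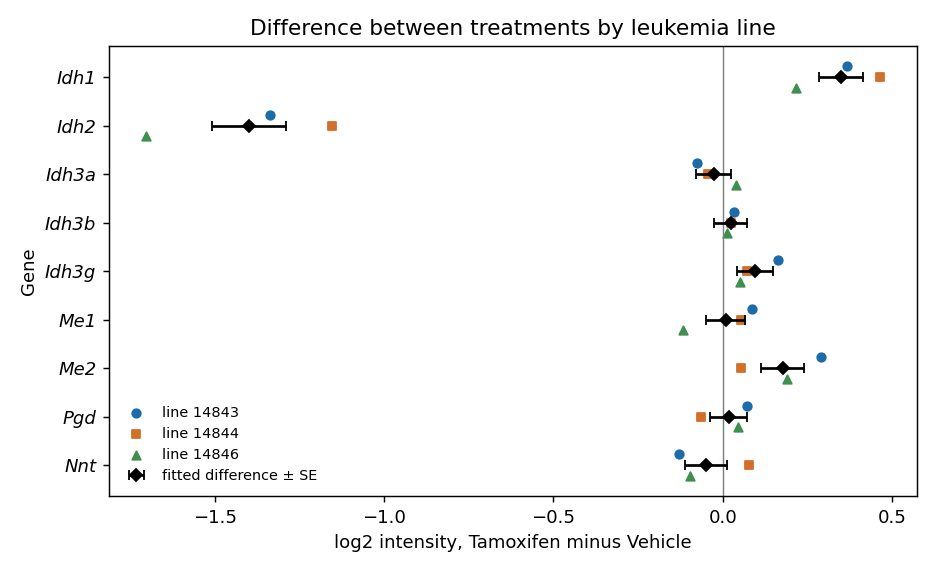
Log2 intensity of Tamoxifen minus Vehicle (x axis) for each measured gene (y axis). Coloured symbols are the 3 lines, and black diamonds with bars are the fitted difference ± SE. Idh2 lies at -1.40 and Idh1 at 0.35, while the other 6 tested genes lie between -0.05 and 0.18 and the dim Me1 at 0.01.

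Of the 8 tested genes, 2 were called, 1 lower and 1 higher, where 6.23% of all tested genes were called, 4.93% lower and 1.3% higher. At an unadjusted p under 0.05 there were 3 of the 8, with Me2 added, against 23.8% of all tested genes. Groups did not overlap for 1 of the 8, Idh2, against 23.7% of all tested genes. The sign was shared by the 3 lines for 5 of the 8, namely Idh1, Idh2, Idh3b, Idh3g and Me2, against 48.8% of all tested genes. The median difference was 0.02 in the 8 genes and 0.03 over all tested genes. Since the group was chosen with the treatment differences known, nothing is read from these counts.

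Differences between the leukemias had not entered the choice and were tested with limma's moderated F test of the line terms. None of the 8 passed an adjusted p of 0.05, against 3.11% of all tested genes, while 6 of the 8 had an unadjusted p under 0.05, against 19.3%. The smallest adjusted p-values were those of Idh3a and Idh1, 0.093 and 0.094. Averaged over both arrays, Idh3a was at 11.10 in line 14843 and at 11.42 and 11.41 in lines 14844 and 14846. Idh1 was at 9.91, 10.10 and 9.66 in lines 14843, 14844 and 14846. Idh2 averaged 10.36 in line 14843 and 9.84 in line 14846, with line 14844 between them and an adjusted p of 0.19. Pgd averaged 11.61, 11.78 and 11.88, with an adjusted p of 0.18. The range between line means was 0.52 for Idh2 and 0.10 for Idh3b, and the median over all tested genes was 0.14.

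Likeness to Idh2 and Idh1 was measured by the correlation of log2 intensity over the 6 arrays after subtracting each line's mean. This leaves 3 differences per gene, so high values are common: 284 genes exceeded 0.99 with Idh2 and 202 with Idh1, and the treatment itself is shared by all of them. Nearest to Idh2 were Stk25, Mfng, Fbxw4, Borcs5 and Bphl, with correlations above 0.99. Their own log2 differences were -0.55, -0.58, -0.96, -0.14 and -0.70, in that order, of which all but that of Borcs5 were called. Mfng is a Fringe glycosyltransferase that modifies Notch receptors. Nearest to Idh1 were Arap2, Ldb3, Fbxl19, Olfr545 and Irf8, with differences of 0.55, 0.05, 0.12, 0.05 and 0.09. Of these only Arap2, a GTPase-activating protein, was called. Over all tested genes 6.23% were called. As the genes were matched on their treatment differences, nothing is read from their calls.

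In a list of 13 other NADPH and folate enzymes, 1 of 11 tested genes fell and 0 rose. That is 9.09%, against 4.93% of all tested genes called lower and 6.23% called in either direction. The median was 0.11. Differences on the list ran from -0.64 to 0.41, with 3 below and 8 above 0. An unadjusted p under 0.05 was found for 5 of the 11, against 23.8% of all tested genes. The one past the adjusted threshold was Nadk, the cytosolic kinase that makes NADP from NAD. It was at 11.04, 11.02 and 11.02 in Vehicle arrays of lines 14843, 14844 and 14846 and at 10.78, 10.71 and 10.62 in Tamoxifen arrays. The groups did not overlap, with a difference of -0.32 ± 0.05 (SE) and a limma adjusted p of 0.033. Without any one of the lines Nadk missed the threshold, with adjusted p-values of 0.067 to 0.17, as it did without the block, at 0.052. Among the other 7 pentose phosphate genes 0 passed, against 6.23% of all tested genes, while 3 had an unadjusted p under 0.05, against 23.8%. The smallest p was that of Pgls, the lactonase between G6pdx and Pgd, at -0.29 ± 0.06 and an adjusted p of 0.051.

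Citric acid cycle genes split evenly in sign. Of 17 tested, 8 lay below and 9 above 0, with a median of 0.01. There was 1 call lower and 1 higher, together 11.8% against 6.23% of all tested genes. Aco1, the cytosolic aconitase that supplies isocitrate to Idh1 and also binds iron-responsive RNA elements, was at 10.03, 10.07 and 10.41 in Vehicle arrays and 9.53, 9.72 and 9.72 in Tamoxifen arrays. Its adjusted p was 0.025, and it lost the call without the block (0.093) and without line 14843 or 14844 (0.057 and 0.087). Pcx, the pyruvate carboxylase that refills oxaloacetate, rose by 0.30 ± 0.06 (SE) with an adjusted p of 0.041. Leaving out any line ended that call, at adjusted p-values of 0.083 to 0.18.

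In the list of 2-oxoglutarate supply and hydroxyglutarate genes, 1 of 13 tested genes fell and 0 rose. That is 7.69%, against 4.93% of all tested genes called lower and 6.23% called in either direction. The median was -0.01. D2hgdh, the mitochondrial enzyme that oxidises D-2-hydroxyglutarate back to 2-oxoglutarate, was at 8.89, 8.97 and 9.13 in Vehicle and 8.46, 8.67 and 8.69 in Tamoxifen arrays. All Tamoxifen values lay under all Vehicle values, with a difference of -0.39 ± 0.06 (SE) and an adjusted p of 0.023. Leaving out any line ended that call, at 0.059 to 0.10, and so did leaving out the block, at 0.10.

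NADPH users held 1 call and the NRF2 pathway 2. Of 8 tested NADPH consumers 1 fell, 12.5% against 4.93% of all tested genes called lower and 6.23% called in either direction. It was Fasn, the fatty acid synthase, from 11.35, 11.62 and 11.53 in Vehicle arrays to 10.73, 11.14 and 11.03 in Tamoxifen arrays (adjusted p = 0.011). Fasn lost the call without the block (0.098) and without line 14844 (0.084). Of 8 tested genes of the NRF2 pathway, which controls several NADPH-producing enzymes, 1 fell and 1 rose, together 25% against 6.23% of all tested genes, and 6 had an unadjusted p under 0.05, against 23.8%. The log2 of the list's summed intensity was 13.05 to 13.13 in Vehicle and 12.81 to 13.02 in Tamoxifen arrays. These sums did not overlap, alone among the 7 related lists, while 23.7% of all tested genes taken singly had no overlap. A sum follows its brightest genes. Of the 8 tested genes, 4 lay below and 4 above 0, from -0.63 to 0.50, with a median of -0.06. Gclm, a subunit of the first enzyme of glutathione synthesis, differed by -0.63 ± 0.09 (SE), and the heme oxygenase Hmox1 by 0.43 ± 0.06. The groups overlapped for Gclm, where Tamoxifen line 14846 was at 9.73 and Vehicle line 14843 at 9.69, but not for Hmox1. Gclm lost its call without the block (0.24) and without line 14844 (0.14). Hmox1 lost its call without the block (0.15) and without line 14843 or 14844 (0.053 and 0.14). Nqo1 and Txnrd1 stood in both lists.

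Dioxygenases that use 2-oxoglutarate held 6 decreases and no increase past the threshold. All 25 on the list were tested, 17 lay below 0, and 6 fell and 0 rose. That is 24.0%, against 4.93% of all tested genes called lower and 6.23% called in either direction. The list was written with earlier results of these arrays known, so the share is a description. The median was -0.07, against 0.03 over all tested genes. P4ha1, a collagen prolyl hydroxylase, went from 10.52, 10.28 and 10.42 in Vehicle arrays of lines 14843, 14844 and 14846 to 9.72, 9.92 and 9.55 in Tamoxifen arrays. Egln1, the main prolyl hydroxylase of hypoxia-inducible factor, went from 11.16, 11.10 and 11.24 to 10.26, 10.62 and 10.66. Neither gene's groups overlapped, and their folds were 1.60 and 1.57, with adjusted p-values of 0.029 and 0.021.

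The histone lysine demethylases Kdm4c and Kdm4b, which act on H3K9 and H3K36, fell by 0.57 and 0.54 on the log2 scale, with SEs of 0.09 and 0.06. Fto, an RNA demethylase, fell by 0.52 ± 0.06 and Kdm2b by 0.36 ± 0.06. For 5 of these 6 genes line 14844 had the smallest decrease, and the exception was Kdm2b. The count of 6 became 1, P4ha1, when line 14844 was left out, 5 without line 14843 and 4 without line 14846 or without the block. Over all tested genes, decreases called went from 688 to 67, 427, 500 and 275 without line 14844, line 14843, line 14846 and the block. P4ha1 itself missed the threshold without line 14843 or 14846 (adjusted p = 0.070 and 0.060), and Egln1 without line 14844 (0.087). The DNA demethylases Tet1 and Tet2 gave 0.20 ± 0.09 and 0.20 ± 0.11 and Tet3 gave -0.16 ± 0.05, none past the threshold. Egln2 and Egln3, relatives of Egln1, gave -0.01 ± 0.05 and 0.18 ± 0.12.

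**Figure D3:**
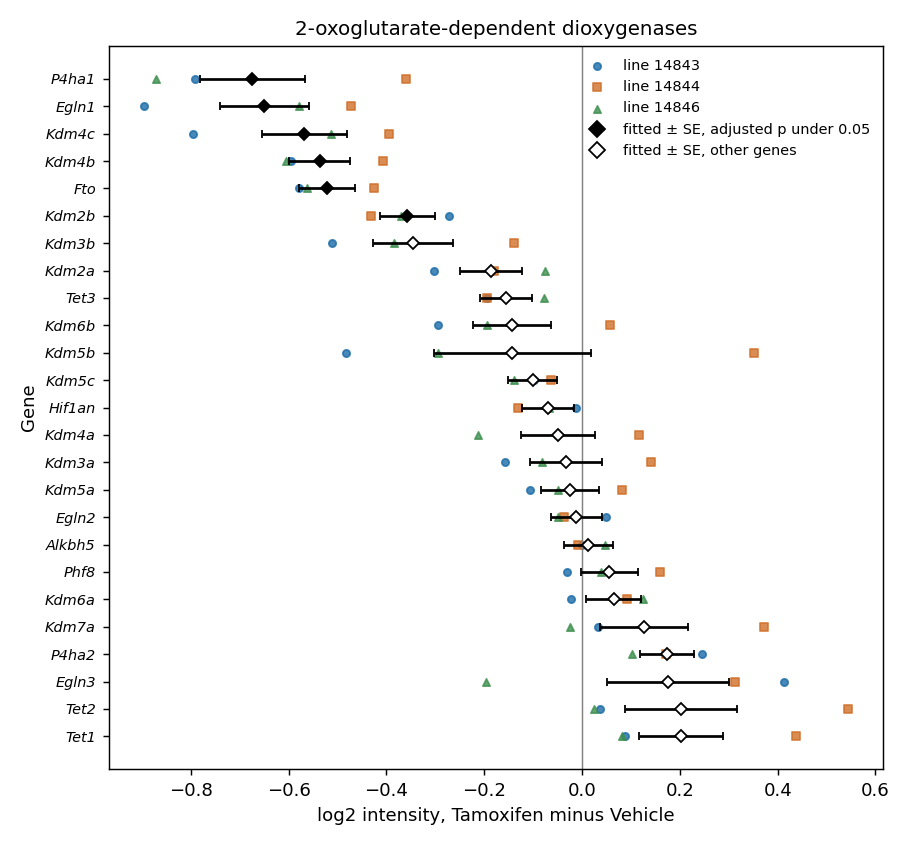
Log2 intensity of Tamoxifen minus Vehicle (x axis) for the 25 dioxygenase genes (y axis, sorted by difference). Coloured symbols are the 3 lines, diamonds with bars the fitted difference ± SE, filled for the 6 genes past an adjusted p of 0.05, which lie between -0.67 and -0.36.

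Over all 7 related lists together, 13 of 88 tested genes were called, 11 lower and 2 higher, which is 14.8% against 6.23% of all tested genes. Of the 13, 6 came from the dioxygenase list. The count was 1, P4ha1, without line 14844, 7 without line 14843, 10 without line 14846 and 5 without the block. Calls over all tested genes went from 870 to 70, 498, 669 and 295 in the same fits, in that order. The lists were written with earlier results of these arrays known, and the median difference over the 88 genes was -0.02.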

How the data were processed

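Total RNA from sorted leukemia cells was labelled from 200 ng by the Ambion WT kit, per the labels' protocols, and measured on 6 one-colour Affymetrix arrays. Per the submitters' processing notes, the authors ran RMA in Affymetrix Expression Console, version 1.1, to make the deposited intensity values. The array medians of 202 to 208 show a linear scale. RMA equalises the distribution of signal across arrays, so a shift of the whole transcriptome is not visible. Arrays have no read depth, and their number limits the precision.

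Log2 was taken, and of 35556 probe sets the 21789 with 1 gene symbol were kept, the brightest per gene. Genes with a mean at or above the 30th percentile, 6.70, were tested in R 4.3.3 by limma 3.58.1 (lmFit, then eBayes; line and treatment as terms, 2 residual and 3.47 prior degrees of freedom, Benjamini-Hochberg adjustment, two-sided, threshold 0.05). "Fell" and "rose" of genes outside the group of 10 mean past that threshold. Line is a block because the series design gives cells of each leukemia to both treatments. Deviations from group means correlated at 0.64, 0.68 and 0.68 within lines. On simulated data with 200 of 13956 genes changed between treatments, 0% of changes of 0.3, 68.5% of 0.5 and 98.5% of 1 log2 unit were recovered. The real fit called 870 genes, which makes the adjustment less strict, so these shares do not carry over to it. Pcx, at 0.30, was called there.

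The 10 genes, the 7 related lists, the 6 marker lists and the naming rule were chosen with earlier results of these data known. The rule named the 10 genes, Zfx, every called gene of a related list or else the one with the smallest p, and the 5 genes most like Idh2 and Idh1. Other genes, such as the Tet and Egln relatives, Pdgfrb and the other stromal markers, and G6pd2, were named after their values were seen. Promoters came from RefSeq GRCm38.p6 and matched 7 of the 10 genes. Protein sequences were not used here. No batch or scan date is given in the sources used here. Alternatives were no block, other scaling, other filters, other eBayes settings, averaged probe sets and each line left out.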

Additional observations from a re-analysis of the deposited data

Results flagged for a closer look

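Within-line differences between Tamoxifen and Vehicle had opposite signs in different leukemias for 4 of the measured genes, on the log2 scale. With 1 pair of arrays per line, none of these differences between lines was tested. Idh3a gave -0.0761, -0.043 and 0.0387 in lines 14843, 14844 and 14846. Me1, below the filter on dim genes, gave 0.0868, 0.054 and -0.116. Pgd gave 0.0721, -0.0633 and 0.0449. Nnt gave -0.13, 0.0792 and -0.0966.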

How the results depend on the processing

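Without the replicate block, which here is the line, 295 genes were called between treatments against 870, and the called members of the group of 10 went from 2 to 1, Idh2, and the called related genes from 13 to 5. Leaving out 1 line in turn gave 70 to 669 called genes between treatments, 193 to 455 between lines (434 in the full fit), 1 to 2 called members of the group, 0 called members between lines, 1 to 5 called dioxygenases and 1 to 10 called related genes. The lowest counts between treatments, between lines, of dioxygenases and of related genes were those without line 14844. Fits without a line have fewer residual degrees of freedom. Idh2 was called under all 10 alternatives, with log2 differences from -1.52 to -1.25 and adjusted p-values from 0.0027 to 0.041. Idh1 was called under 7 of 10, from 0.29 to 0.42 and from 0.037 to 0.34. Pgd, at 0.02 in the full fit, gave -0.0092 to 0.058 when 1 line was left out, below 0 without line 14843, and turned to -0.010 with arrays centred on the median of named genes, where Idh3b also turned, to -0.0045; none of these passed the threshold. That second centring and all alternatives for the related lists were chosen after seeing the data.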
